A study of Mus musculus with 8 samples.

Results

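Highly methylated stretches of the mouse liver genome were examined, taken as windows of 5 kb chosen by a mean CpG methylation of 90% or more over 8 whole-genome bisulfite libraries. The windows started at multiples of 5000 bases on chromosomes 1 to 4 and 10 to 19 and on chromosome 5 as far as position 117089998, and each held at least 40 measured cytosines. Of 313421 windows with that many cytosines, 29209 (9.32%) reached 90%, and they held 2721558 of the measured positions. The overall mean over all 8 libraries chose them, so their high level is a description and not a finding, while the difference between the groups played no part in the choice.

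The libraries came from livers of wild-type male C57BL/6J mice, a common inbred strain, 8 weeks old when bought and fed for 28 weeks. The 4 libraries titled NASH (nonalcoholic steatohepatitis) stand for mice fed large amounts of fat, cholesterol and fructose, and the 4 libraries titled WT, named ND in the data table, for mice on a normal diet. A separate treatment field gives each sample the opposite diet to its title. Titles and column names were followed, and under the treatment field all directions below would turn round. It is not stated whether each library is a different mouse, so p-values measure only the spread between these libraries, which may be technical. Levels are percent methylation at single cytosines without read counts, so the depth behind each level is unknown. DNA came from whole liver, in which a change in the mix of cell types and a change of methylation within cells cannot be told apart. Marker promoters carried low methylation for hepatocyte genes, with a median of 31.8% in NASH and 23.6% in ND libraries over 19 genes, and high methylation for germline genes, with medians of 80.6% and 80.3% over 8 genes. Over 7 lymphocyte genes the medians were 66.1% in NASH and 69.3% in ND libraries, over 7 macrophage genes 35.2% and 43.0%, over 9 endothelial genes 45.1% and 50.6%, and over 6 cholangiocyte genes 31.8% and 34.3%. The medians were higher in NASH over 8 neutrophil genes, at 45.3% in NASH and 43.7% in ND libraries. They were also higher over 10 stellate cell and matrix genes, at 5.86% and 4.70%. Single promoters of both lists were nonetheless mostly lower in NASH. Only Cxcr2, Elane and Prtn3 among the neutrophil genes and Lrat, Spp1 and Fbn1 among the stellate cell and matrix genes were higher. The part of cell mix in the results below was not tested.

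In mammalian DNA most CpGs are methylated on both strands. The bodies of transcribed genes are among the most heavily methylated stretches, because the histone mark laid down behind elongating RNA polymerase, trimethylated lysine 36 of histone H3, attracts the methyltransferases DNMT3A and DNMT3B. CpG islands at active promoters and bound enhancers are protected and stay low. Exceptions are the CpG-rich promoters of germline genes, which are methylated and silent in body tissues.

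Promoters were scarce in these windows, and a few of those that lie there are printed below with their CpGs marked, whatever the level of each CpG. Of 14767 listed promoters of protein-coding genes (250 bases before to 50 after a start site), 139 lay inside a highly methylated window, which is 0.941%, against 312 of 8614 promoters of long noncoding RNAs (3.62%). The coding promoters inside them had a median of 4 CpGs in 300 bases, against 14 over all coding promoters. The 4 coding genes with the most measured cytosines are printed first because they are CpG-rich and yet methylated. Sequences are from RefSeq (GRCm38.p6, the assembly behind mm10), 5′ to 3′ on the strand of the gene, with every CpG in capitals. Hormad1 encodes a meiotic chromosome axis protein (chr3:95559427-95559726, plus strand). Taf7l2 resembles a TFIID subunit gene (chr10:116113868-116114167, minus strand). Jade1 encodes a subunit of a histone acetyltransferase complex, and the start site is 1 of 4 listed for it (chr3:41555484-41555783, plus strand). Tex19.1 is a germline gene that restrains retrotransposons (chr11:121145893-121146192, plus strand).
Hormad1: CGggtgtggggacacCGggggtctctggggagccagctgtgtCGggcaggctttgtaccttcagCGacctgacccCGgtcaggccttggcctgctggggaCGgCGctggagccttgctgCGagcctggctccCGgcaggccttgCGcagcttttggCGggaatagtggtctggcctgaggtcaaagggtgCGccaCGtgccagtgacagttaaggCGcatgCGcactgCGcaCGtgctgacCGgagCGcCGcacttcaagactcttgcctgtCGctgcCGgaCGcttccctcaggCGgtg
Taf7l2: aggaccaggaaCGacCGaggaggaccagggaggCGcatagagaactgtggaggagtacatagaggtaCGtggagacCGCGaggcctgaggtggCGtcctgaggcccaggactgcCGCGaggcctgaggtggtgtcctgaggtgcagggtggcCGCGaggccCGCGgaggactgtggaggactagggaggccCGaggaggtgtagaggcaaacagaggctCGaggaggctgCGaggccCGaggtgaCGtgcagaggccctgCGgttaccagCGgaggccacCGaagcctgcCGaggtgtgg
Jade1: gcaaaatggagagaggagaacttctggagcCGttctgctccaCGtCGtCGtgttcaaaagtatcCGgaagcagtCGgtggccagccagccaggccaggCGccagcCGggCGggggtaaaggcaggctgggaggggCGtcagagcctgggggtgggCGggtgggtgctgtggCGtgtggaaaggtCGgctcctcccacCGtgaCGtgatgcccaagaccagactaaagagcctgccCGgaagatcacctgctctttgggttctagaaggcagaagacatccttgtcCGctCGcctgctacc
Tex19.1: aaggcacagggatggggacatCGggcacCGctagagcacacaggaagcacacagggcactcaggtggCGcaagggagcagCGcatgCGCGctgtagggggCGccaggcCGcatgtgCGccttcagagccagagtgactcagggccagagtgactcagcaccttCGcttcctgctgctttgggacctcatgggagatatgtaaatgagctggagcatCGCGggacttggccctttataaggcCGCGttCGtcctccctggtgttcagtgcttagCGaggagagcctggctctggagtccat

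The Hormad1 promoter held 24 CpGs and averaged 92.7% ± 1.60 in NASH and 88.7% ± 3.399 in ND libraries (SD, n = 4 each, as throughout). The Taf7l2 promoter, with 22 CpGs, averaged 91.6% ± 5.74 in NASH and 92.0% ± 1.83 in ND libraries. Jade1, with 18 CpGs, averaged 88.4% ± 8.92 and 96.3% ± 1.82, and Tex19.1, with 16, averaged 88.1% ± 6.41 and 92.9% ± 2.57. The NASH and ND libraries overlapped at all 4. Of 2 motifs known from germline gene silencing, the E-box CACGTG (its own reverse complement) occurs in Hormad1, and TCCCGC, searched on both strands, in Hormad1 and Tex19.1. CACGTG was found in 5.76% of the coding promoters inside highly methylated windows and 8.24% of all coding promoters, and TCCCGC in 4.32% and 27.2%. Both motifs contain a CpG, and these promoters had a median of 4 CpGs, against 14 over all coding promoters. The part of CpG content in these shares was not tested. A match is a string of letters and no proof of a bound site.

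Of 93 coding promoters there with at least 6 measured cytosines, 63 had a lower mean in NASH than in ND libraries. Every NASH library lay below every ND library at 4 of them (4.30%) and above at 0, against 2.27% below and 2.01% above over all 12024 coding promoters with that many cytosines. These 4 are printed as the promoters whose libraries separated, which is how they were chosen. Itga3 encodes an integrin alpha subunit that binds laminin (chr11:95069149-95069448, minus strand). Prlr encodes the prolactin receptor (chr15:10293401-10293700, plus strand). This Prlr start site lies inside the gene, whose span begins at 10177238, and is not the one at the beginning of the span. Ogn encodes osteoglycin, a small proteoglycan of the extracellular matrix (chr13:49607765-49608064, plus strand). Hus1b is a paralog of the checkpoint clamp gene Hus1 (chr13:30947712-30948011, minus strand).
Itga3: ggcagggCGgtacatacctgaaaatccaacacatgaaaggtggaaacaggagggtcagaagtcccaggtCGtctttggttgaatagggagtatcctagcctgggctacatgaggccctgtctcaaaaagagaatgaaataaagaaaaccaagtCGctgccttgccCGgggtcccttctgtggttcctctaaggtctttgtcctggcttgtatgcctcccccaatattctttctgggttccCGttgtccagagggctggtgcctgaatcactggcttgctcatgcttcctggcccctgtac
Prlr: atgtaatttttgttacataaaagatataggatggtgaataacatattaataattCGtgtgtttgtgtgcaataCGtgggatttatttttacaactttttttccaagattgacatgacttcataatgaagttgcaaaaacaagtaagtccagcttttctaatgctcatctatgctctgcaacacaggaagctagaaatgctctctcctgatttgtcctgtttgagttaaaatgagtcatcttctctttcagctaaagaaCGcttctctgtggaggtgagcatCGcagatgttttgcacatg
Ogn: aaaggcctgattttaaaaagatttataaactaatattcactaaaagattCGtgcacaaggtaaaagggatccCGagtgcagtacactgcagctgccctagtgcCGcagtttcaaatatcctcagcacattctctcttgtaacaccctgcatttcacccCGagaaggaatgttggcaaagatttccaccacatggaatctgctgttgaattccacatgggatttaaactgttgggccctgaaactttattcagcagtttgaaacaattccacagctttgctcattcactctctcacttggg
Hus1b: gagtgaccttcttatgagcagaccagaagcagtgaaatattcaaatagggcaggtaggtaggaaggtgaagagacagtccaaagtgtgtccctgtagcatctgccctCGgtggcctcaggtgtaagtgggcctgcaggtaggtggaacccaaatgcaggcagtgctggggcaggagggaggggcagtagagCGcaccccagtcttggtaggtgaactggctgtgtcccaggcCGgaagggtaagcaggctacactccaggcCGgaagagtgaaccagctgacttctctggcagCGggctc

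These promoters are CpG-poor, with 4 or 5 CpGs each. Itga3 was at 80.9%, 78.9%, 79.7% and 81.3% in NASH libraries and at 94.4%, 89.5%, 91.0% and 85.2% in ND libraries, a difference of -9.81 percentage points. Prlr averaged 85.9% ± 3.49 in NASH and 93.8% ± 1.71 in ND libraries. Ogn averaged 82.9% ± 1.55 in NASH and 90.1% ± 4.95 in ND libraries, and Hus1b 89.75% ± 3.41 and 96.75% ± 1.72. The 5 kb windows around them did not pass the test described next (limma adjusted p of 0.363 for Itga3, 0.395 for Prlr, 0.381 for Ogn and 0.506 for Hus1b). Only 140 highly methylated windows held a listed coding start site, 1.22% of the windows that do. Of 710 microRNA hairpins 76 lay in highly methylated windows, a share near the 9.32% of all windows.

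Across all highly methylated windows the NASH libraries were slightly lower, and few single windows passed the test. Their mean level was 92.0%, 91.8%, 92.5% and 91.8% in NASH libraries and 92.7%, 92.4%, 92.6% and 92.7% in ND libraries. NASH averaged 92.03% ± 0.324 and ND 92.61% ± 0.130, a difference of -0.584 points, and the groups overlapped, since NASH 3 lay above ND 2. Over all 313421 windows the means were 75.5% ± 0.668 in NASH and 76.0% ± 0.606 in ND libraries. The median difference was -0.563 points over highly methylated windows and -0.605 over all windows. NASH was the lower group in 19967 of the 29209 windows (68.4%), against 62.3% of all windows. The lean was not particular to windows past 90%. At 85% to 90% NASH was lower in 69.8% of windows, with a median difference of -0.862 points. Each single window was tested with limma on the levels, with Benjamini-Hochberg adjustment over all 313421 windows. At an adjusted p under 0.05, 46 highly methylated windows (0.157%) were lower in NASH, against 0.335% of all windows. In the other direction 2 (0.00685%) were higher, against 0.622% of all windows. Without adjustment 3355 highly methylated windows had a limma p under 0.05 and were lower, and 556 were higher. The same counts over all windows were not taken, so these 2 have no background beside them. The count of calls depended on single libraries. The number of windows called lower was 0 without ND 1, ND 2 or ND 4, 2 without NASH 4, 4 without ND 3, 8 without NASH 1, 11 without NASH 2 and 22 without NASH 3. Of the 46, 2 were among those called without NASH 4, 2 without ND 3, 7 without NASH 1, 9 without NASH 2 and 15 without NASH 3.

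Windows in which the libraries separated leaned the same way. All NASH libraries lay below all ND libraries in 1904 highly methylated windows (6.52%), against 5.62% of all windows. All NASH libraries lay above all ND libraries in 360 (1.23%), against 3.81% of all windows. Among windows at 85% to 90% these shares were 7.96% below and 1.83% above. By overall level, calls of lower methylation made up 0.533% of windows at 85% to 90%, 0.219% at 90% to 91%, 0.325% at 91% to 92% and 0.109% at 92% to 93%. There were 2 calls among 4335 windows at 93% to 94% and 0 among the 2999 at 94% to 95% and the 2155 at 95% or more. Calls of higher methylation were densest at 40% to 60%, with 4.53% of windows. Just outside the threshold, 776 windows at 89.9% to 90% averaged 89.6% in NASH and 90.3% in ND libraries, and just inside it, 820 windows at 90% to 90.1% averaged 89.6% and 90.5%.

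**Figure D1:**
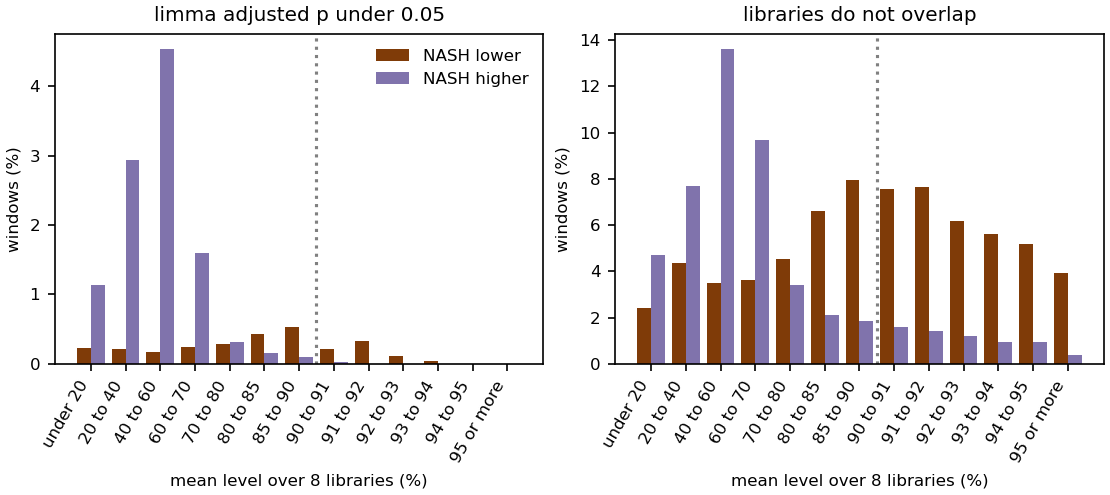
Share of 5 kb windows called by limma (left) and share whose 4 NASH and 4 ND libraries did not overlap (right), in percent, by mean level over the 8 libraries; brown bars are lower and purple bars higher in NASH, and the dotted line marks 90%. Higher calls peak at 40% to 60% (4.53%), and above 90% nearly every call is lower in NASH.

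Fewer positions were fully methylated in NASH libraries. Within highly methylated windows 59.8%, 61.6%, 63.9% and 58.9% of positions stood at exactly 100% in NASH libraries, against 64.6%, 64.8%, 65.6% and 64.8% in ND libraries, so the groups did not overlap. Over all windows the same share was 35.3% ± 1.97 in NASH and 38.4% ± 0.736 in ND libraries. Positions from 50% to just under 100% made up 37.3% ± 2.23 in NASH and 33.3% ± 0.526 in ND libraries. Positions under 50% were 1.64% ± 0.123 in NASH and 1.77% ± 0.0873 in ND libraries. The share of positions at 100% also depends on how many reads cover each position, which is unknown, and its part in these shares was not tested.

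Highly methylated windows lay mostly in gene bodies. Protein-coding genes overlapped 23925 of them (81.9%), against 46.7% of all windows. A further 1486 overlapped only other annotated genes and 3798 no gene. Windows in no gene averaged 91.0% ± 0.415 in NASH and 91.9% ± 0.206 in ND libraries, with a median difference of -0.909 points, and 77.0% were lower in NASH. Windows in other genes only averaged 91.2% ± 0.403 and 92.1% ± 0.188. Windows in protein-coding genes averaged 92.2% ± 0.308 in NASH and 92.8% ± 0.117 in ND libraries, with a median difference of -0.486 points, and 66.5% were lower. The highest NASH library, NASH 3, lay above the lowest ND library, ND 2, in coding genes and outside genes, and just below it in other genes only. The share called lower was 0.132% in no gene (5 windows), 0.202% in other genes only (3 windows) and 0.159% in protein-coding genes (38 windows).

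**Figure D2:**
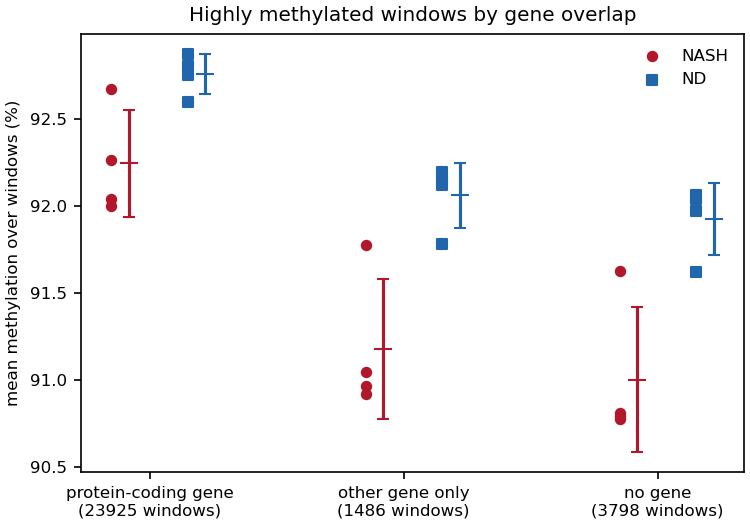
Mean methylation (percent) over highly methylated windows in each library, by whether the window overlaps a protein-coding gene, only another gene, or no gene; NASH libraries are red circles and ND libraries blue squares, with mean and SD beside them. Outside genes the NASH mean is 91.0% and the ND mean 91.9%, and in coding genes 92.2% and 92.8%.

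Along a gene the high level built up toward the end. In genes of at least 50 kb with a known strand, 6.46% of windows in the first 10% of the gene were highly methylated, against 11.9% in the next 10%, 14.96% from 20% to 40%, 17.6% from 40% to 60%, 20.2% from 60% to 80% and 21.4% in the last 20%. The median difference between NASH and ND was -0.411 points in the first 10% and -0.543 in the last 20%. Windows called lower numbered 1, 1, 0, 4, 7 and 6 along the same stretches, which is 0.172%, 0.106%, 0%, 0.143%, 0.216% and 0.164% of the highly methylated windows there, against 0.157% of all of them. By chromosome the share of highly methylated windows ran from 7.91% on chromosome 3 to 10.95% on chromosome 13, and the median difference from -0.506 points on chromosome 16 to -0.615 on chromosome 1. The 46 windows called lower were spread over all 15 chromosomes.

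Long genes held many of these windows. At least 1 highly methylated window overlapped 5565 of 14326 protein-coding genes, and 593 genes had 10 or more. Atrnl1, which encodes an attractin-like membrane protein, had 68 of its 105 windows in the set. Diaph3, a formin gene of the actin cytoskeleton, had 67 of 98, and Pard3b, a cell polarity gene, had 67 of 182. Vps13b, a lipid transfer protein gene, had 65 of 101. Across the 68 windows of Atrnl1 NASH averaged 92.9% ± 0.440 and ND 93.6% ± 0.211, and 53 of the 68 were lower in NASH. The 67 windows of Diaph3 averaged 93.4% ± 0.0780 in NASH and 93.5% ± 0.287 in ND libraries, with 35 lower. Lpp, a focal adhesion protein gene, had 54 such windows and averaged 92.5% ± 0.318 in NASH and 93.5% ± 0.245 in ND libraries.

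Among genes with at least 10 windows the median share of highly methylated windows was 10%, and 1285 of 3974 such genes had 0. The highest shares were in Pikfyve, a lipid kinase gene of endosomes, with 18 of 19 windows, and Cep135, a centriole gene, with 12 of 13. Pole, the gene of the catalytic subunit of DNA polymerase epsilon, and Tpx2, a spindle assembly gene, each had 10 of 11. The others of the 12 highest were Obi1 with 9 of 10, Pcnt and Sclt1 with 17 of 19 each, Pik3c3 and Polq with 15 of 17 each, Dmxl1 with 21 of 24, Smc5 with 12 of 14 and Fancm with 11 of 13. In Pole all 10 windows were lower in NASH, at 93.0% ± 0.670 in NASH and 94.4% ± 0.639 in ND libraries, and none was called. In Smc5 and Fancm 5 of 12 and 5 of 11 were lower. The longest unbroken run was 24 windows on chromosome 2 from 115595000 to 115714999, over BC052040 and Mir1951, at 93.1% ± 0.254 in NASH and 93.6% ± 0.168 in ND libraries. Runs of 19, 18, 18, 16 and 16 windows followed in Tasp1, Pikfyve, Htt, Pcnt and Prkdc. Of all highly methylated windows 11471 had no highly methylated neighbour.

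The 46 windows called lower were single windows scattered over as many places. Their differences ran from -3.28 to -7.95 points with a median of -4.48, and the limma adjusted p-values from 0.0172 to 0.0497. All NASH libraries lay below all ND libraries in each of the 46. Their NASH libraries averaged 88.9%, 89.1%, 89.4% and 88.7% and their ND libraries 93.6%, 93.6%, 93.6% and 93.7%, as these windows were picked for separating. The NASH mean was under 90% in 38 of them, while an ND mean of at least 90% follows from the choice of windows called lower. Protein-coding genes overlapped 38, 3 lay only in noncoding genes (Gm31449, Gm24172 and Gm33100, named after their values were seen), 5 lay in no gene, and 0 held a listed start site. Of all highly methylated windows 81.9% overlapped a protein-coding gene, 13.0% lay in no gene and 0.479% held a listed start site. The counts among the 46 are near these shares and say little about where the falls lie. No gene held more than 1 of them, and none had a neighbour that was called lower, but calls were rare, at 0.157% of highly methylated windows.

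Within these windows the fall was on both strands and in most bins of 500 bases, though unevenly. The windows were picked for a lower mean in NASH, so these counts describe the fall and are no test of it. Both strands were lower in NASH in 46 of 46. Of 4288 positions 2657 were lower, 438 equal and 1193 higher. Split into bins of 500 bases with at least 4 positions, 330 of 387 bins were lower, and the bin with the largest share of the fall held 17.5% to 70.5% of it, with a median of 38.7%. Positions at exactly 100% made up 53.7% ± 2.23 in NASH and 66.4% ± 1.03 in ND libraries, and positions under 50% made up 2.47% ± 0.226 and 0.682% ± 0.156. Exact zeros, which can stand for positions without reads, made up 0.869% ± 0.292 in NASH and 0.268% ± 0.123 in ND libraries of these windows, against 0.713% ± 0.111 and 0.754% ± 0.102 in all highly methylated windows. With zeros among highly methylated neighbours left out, 31 of the 46 were still called, and 116 highly methylated windows were called lower in all.

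The difference was largest in the window itself and reached into the neighbour on the higher-coordinate side more than into the other. In the neighbouring windows 5 kb below, 27 of 46 were lower in NASH, with a mean difference of -0.180 points, and in those 5 kb above 35 of 46 were lower, with a mean difference of -1.51 points. At 15 kb the mean differences were -0.463 below and 0.0140 above. Around all highly methylated windows the mean difference was -0.264 points 5 kb below and -0.260 points 5 kb above, where 59.8% were lower. No test was made of these flanks.

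**Figure D3:**
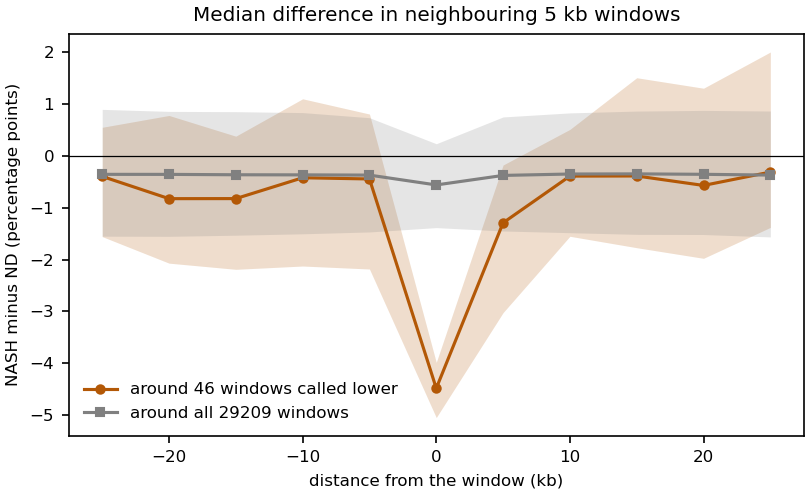
Difference of NASH minus ND in percentage points (vertical axis) in windows up to 25 kb to either side (horizontal axis, kb), around the 46 windows called lower (brown) and around all 29209 highly methylated windows (grey); lines are medians and bands run from the lower to the upper quartile of windows. The brown line reaches -4.48 at the window itself, as its choice requires, and is -1.29 at 5 kb above and -0.448 at 5 kb below.

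Among the called windows the largest fall was in Ankrd28, which encodes a regulatory subunit of protein phosphatase 6 (chromosome 14, 31775000 to 31779999, inside the gene). The window was at 87.3%, 87.9%, 87.0% and 83.8% in NASH libraries and at 95.8%, 93.8%, 93.1% and 95.1% in ND libraries. NASH 4 was the lowest, and the groups were separated by more than 5 points. The difference was -7.95 points (SE 1.05, limma adjusted p = 0.0186), where windows without a call reached -8.78 points, and 45 of its 56 positions were lower. Positions at exactly 100% made up 31.7% in NASH and 57.1% in ND libraries.

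Fyb2, an adaptor gene of T cell receptor signalling, had the next largest called fall (chromosome 4, 105005000 to 105009999). Its window was at 85.2%, 88.1%, 88.4% and 87.4% in NASH libraries and at 93.5%, 93.5%, 93.2% and 92.9% in ND libraries, a difference of -5.99 points (SE 0.831, limma adjusted p = 0.0205). The ND libraries lay within 1 point of each other. Its largest bin, with 6 positions, averaged 61.6% ± 11.8 in NASH and 84.8% ± 2.95 in ND libraries.

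A pair of the 12 largest called falls lay outside genes. The window on chromosome 15 from 62305000 to 62309999, 315 kb from Myc, a growth-promoting transcription factor gene and the nearest coding gene, was at 90.4%, 88.3%, 92.6% and 87.7% in NASH libraries and at 96.2%, 94.0%, 95.7% and 96.7% in ND libraries. The NASH libraries were spread over nearly 5 points and the groups came close, at 92.6% in NASH 3 and 94.0% in ND 2. The window on chromosome 2 from 118560000 to 118564999, 10.3 kb from Bmf, the gene of a death-promoting member of the BCL2 family, was at 87.4%, 87.6%, 86.9% and 88.7% in NASH libraries and at 93.2%, 92.6%, 93.4% and 92.6% in ND libraries. Its NASH and ND libraries were each tightly grouped. The bin with the largest difference, of 4 positions, averaged 47.5% ± 11.8 in NASH and 76.7% ± 8.68 in ND libraries. A different bin held the largest share of the fall, 45.2%.

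Slc35a5, a member of the nucleotide sugar transporter family, had the smallest adjusted p (chromosome 16, 45145000 to 45149999). Its window was at 89.0%, 90.4%, 88.2% and 88.4% in NASH libraries and at 94.4%, 94.4%, 94.7% and 94.3% in ND libraries (difference -5.44 points, SE 0.696, limma adjusted p = 0.0172). Cntrl, which encodes centriolin of the centrosome, averaged 87.9% ± 1.26 in NASH and 93.4% ± 1.13 in ND libraries over 124 positions. Appl1, an adaptor gene that binds adiponectin receptors and the endosomal GTPase Rab5, was at 88.2%, 89.7%, 87.9% and 89.4% in NASH libraries and at 94.0%, 94.6%, 94.0% and 93.3% in ND libraries. In Appl1 the groups were over 3 points apart.

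The other 5 of the 12 largest called falls were close to each other in size. Gm31449, a long noncoding RNA gene, averaged 88.6% ± 1.55 in NASH and 93.9% ± 0.592 in ND libraries. Rabepk, the gene of an effector of the GTPase Rab9, averaged 89.2% ± 0.898 and 94.3% ± 0.672. Rad17, whose product loads the DNA damage checkpoint clamp, averaged 88.6% ± 1.38 in NASH and 93.7% ± 0.870 in ND libraries. Eif4g3, a translation initiation factor gene, averaged 89.2% ± 1.15 in NASH and 94.3% ± 0.784 in ND libraries, and 63.9% of its fall lay in a bin of 24 positions, at 64.5% ± 3.21 in NASH and 87.6% ± 5.98 in ND libraries. Dpf3, the gene of a subunit of the BAF chromatin remodelling complex, averaged 88.2% ± 1.67 in NASH and 93.3% ± 0.552 in ND libraries.

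The other 34 called falls, outside the naming rule and named after their values were seen, ran from -3.28 to -5.03 points. Of these, 29 lay in protein-coding genes, which were Rapgef6, Niban1, Armc9, Axin1, Mzb1, Stard9, Hps4, Bcl2l11, Cnot6, Zfp386, Agfg1, Nsmce2, Spag1, Arhgap24, Nprl3, Pgd, Lrig2, Gbe1, Wdr78, Atrnl1, Rps6ka5, Mnat1, Zdhhc20, Tbc1d9b, Arfgap3, Tns3, Nck2, Efr3a and Lgr5. A few are given with their values as examples, with no shared function tested. Axin1, a scaffold of the complex that destroys beta-catenin, averaged 88.2% in NASH and 93.0% in ND libraries. Lgr5, a receptor of the Wnt-enhancing R-spondins, averaged 90.3% in NASH and 93.6% in ND libraries and was the smallest called fall. Bcl2l11, the gene of the death-promoting protein BIM, averaged 89.5% in NASH and 94.1% in ND libraries. Gbe1, the glycogen branching enzyme, averaged 90.4% in NASH and 94.4% in ND libraries, and Pgd, an enzyme of the pentose phosphate pathway, 90.8% and 94.9%. Atrnl1, the gene with the most highly methylated windows, had 1 called window, at 90.2% in NASH and 94.2% in ND libraries.

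The 2 windows called higher crossed 90% the other way. Tbl1xr1, the gene of a corepressor complex subunit (chromosome 3, 22095000 to 22099999), was at 92.4%, 92.7%, 93.7% and 92.8% in NASH libraries and at 86.1%, 88.6%, 89.8% and 88.4% in ND libraries (difference 4.68 points, SE 0.875, limma adjusted p = 0.0429). Ivd, a mitochondrial enzyme of leucine breakdown (chromosome 2, 118865000 to 118869999), was at 94.0%, 91.3%, 92.5% and 94.0% in NASH libraries and at 88.8%, 88.6%, 87.1% and 89.4% in ND libraries (difference 4.45 points, SE 0.869, limma adjusted p = 0.0482). In both windows every NASH library lay above every ND library.

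**Figure D4:**
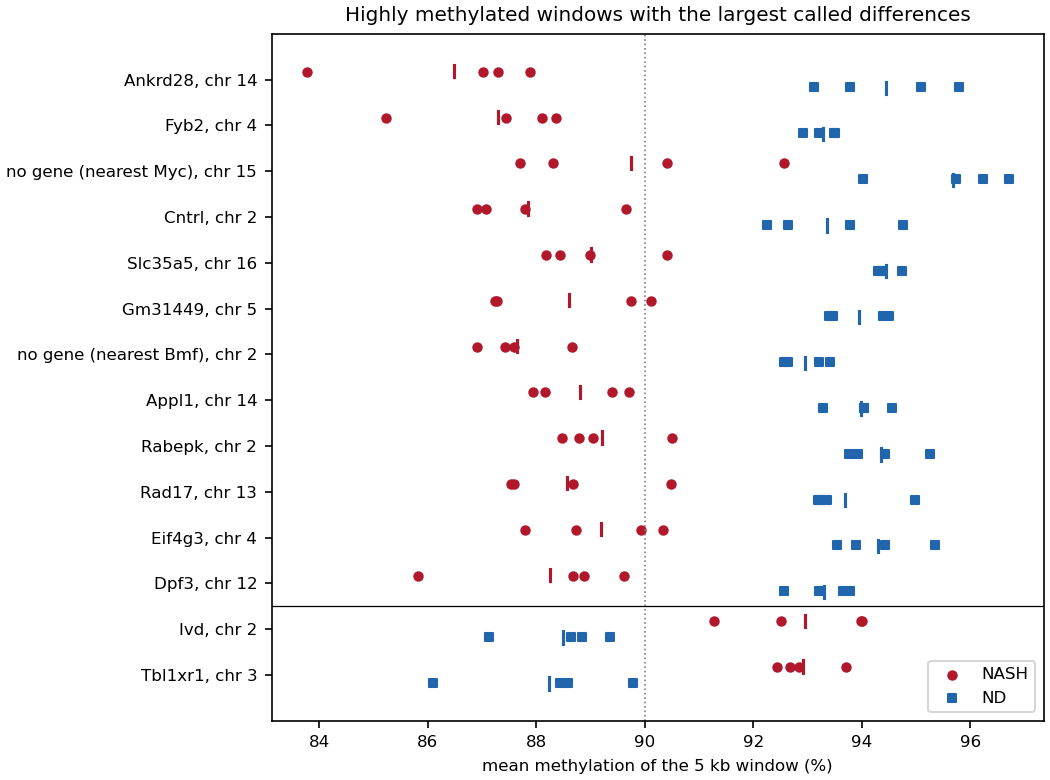
Mean methylation (percent) of the 12 windows with the largest called falls and the 2 called rises, 1 point per library, NASH as red circles above ND as blue squares, with ticks at the group means; the dotted line marks 90%. In the upper 12 rows every ND library is above 92% and every NASH library lies below the ND libraries of its row.

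Gene lists differed widely in how much of their length was highly methylated. Of 181 windows over the 12 measured genes of the gene body histone methylation list, 86 (47.5%) were highly methylated. The share was 9.32% of all windows and 16.3% of windows that overlap a protein-coding gene, which is the nearer comparison for gene lists. Kdm4c, a histone demethylase gene, had 23 of 32 windows, and Ash1l, a histone methyltransferase gene, 17 of 26. RNA processing and transcription genes had 28 of 95 (29.5%) and DNA methylation genes 28 of 107 (26.2%), with 9 of them in Tet2, which encodes an enzyme that oxidises methylcytosine. Hepatocyte identity genes had 2 of 119, in F2 (prothrombin) and Ambp, and glucose, xenobiotic, neutrophil and cholangiocyte genes 0 of 79, 63, 46 and 37. No gene of the 18 lists overlapped a called highly methylated window. Calls were rare throughout, at 0.157% lower and 0.00685% higher among all highly methylated windows, so this says little about the listed genes.

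**Figure D5:**
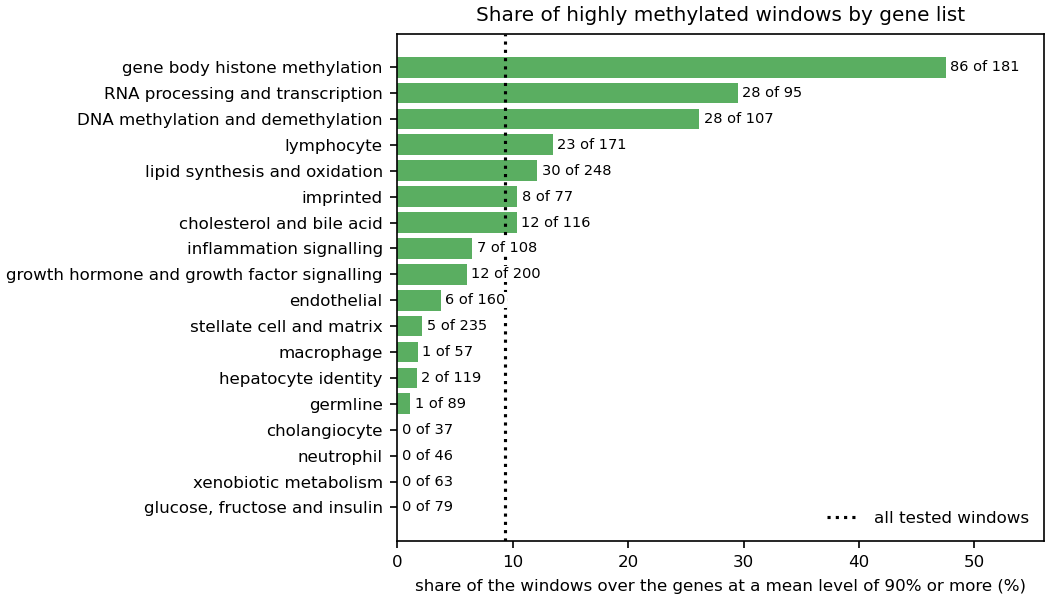
Share of the 5 kb windows over the genes of each list that were highly methylated (percent), with the numbers of windows beside the bars; the dotted line is the 9.32% of all tested windows. Gene body histone methylation genes reach 47.5%, and 4 lists have none. Among windows that overlap a protein-coding gene the share is 16.3%, so a bar just past the dotted line is not high for genes.

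In most lists with highly methylated windows, windows lay on both sides of 0. All 5 windows of stellate cell and matrix genes (4 of them in Reln), the 1 of macrophage genes (Tlr2) and the 1 of germline genes (Tex19.1) were lower in NASH, and the 2 of hepatocyte identity genes were higher. Of the 86 windows of gene body histone methylation genes 46 were lower in NASH (median difference -0.108 points), and of the 28 of RNA processing genes 11 were (0.556 points), against 68.4% and -0.563 points over all highly methylated windows. Of 30 windows of lipid synthesis and oxidation genes 21 were lower (-0.497 points), and of 12 cholesterol and bile acid windows 8 were (-1.21 points). Of 23 lymphocyte windows 19 were lower (-1.23 points), with 22 of the 23 in Bach2, a transcriptional repressor gene of B and T cells. Averaged over its highly methylated windows, a gene's libraries separated with NASH lower in 547 of the 5565 coding genes that have any (9.83%) and with NASH higher in 45 (0.809%). Of the 66 such genes on the lists, 8 separated with NASH lower (Acacb, Bach2, Reln, Nfkb1, Tet2, Nsd2, Prlr and Sf3b1). With NASH higher there was 1, F2, at 95.5% ± 0.315 in NASH and 94.1% ± 0.345 in ND libraries over 1 window. Both counts are near the shares over all such coding genes, so separation is no result about the listed genes. In Bach2 the windows averaged 91.9%, 92.0%, 92.7% and 91.7% in NASH libraries and 93.4%, 93.3%, 93.3% and 93.1% in ND libraries, and the groups did not overlap.

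Nfkb1, which encodes the p105 precursor and p50 subunit of NF-kappaB, had 6 highly methylated windows, and all 6 were lower in NASH. They averaged 89.8%, 90.4%, 92.0% and 90.3% in NASH libraries and 93.7%, 93.5%, 93.6% and 94.1% in ND libraries, without overlap, and none of the 6 was called. Tet2 averaged 93.0% ± 0.0918 in NASH and 93.9% ± 0.123 in ND libraries over its 9 windows, also without overlap. Lss, the lanosterol synthase gene of cholesterol synthesis, averaged 90.3% ± 1.18 in NASH and 92.7% ± 1.15 in ND libraries over 3 windows, and the groups overlapped. Acacb, the acetyl-CoA carboxylase gene that restrains fatty acid oxidation, averaged 90.6% ± 0.911 in NASH and 92.4% ± 0.406 in ND libraries over 5 windows. In Jak2, the kinase gene of growth hormone signalling, 1 of 5 windows was lower, at 93.7% ± 0.292 in NASH and 93.0% ± 0.554 in ND libraries.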

How the data were processed

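Whole-genome bisulfite libraries of liver DNA were deposited as a table of percent methylation per CpG cytosine, each strand on its own row. The authors' table holds percent values without read counts, and the submitters' processing notes name FastQC and mm10. Neither an aligner nor a methylation caller is given in the sources used here. The table as held here gave 30729300 positions on 15 chromosomes, and 326824 positions on 85 contigs, 368 positions past the chromosome 5 limit and 1 incomplete line were left out. Positions were compared with the promoter sequences: after subtracting 1 base, 575019 of 575019 fell on a CpG.

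Samples were grouped by title and column name. The highly methylated windows and the gene lists were chosen with earlier results of these data known. Window means were unweighted. Without counts the planned quasi-binomial model was not possible, and limma 3.58.1 in R 4.3.3, with a mean-dependent prior variance, was run on all 313421 windows as planned for that case and tested on simulated data. Python 3.11.15, numpy 2.4.6 and pandas 2.3.3 were used. Gene spans were those of RefSeq (GRCm38.p6), without exons. Start sites and strands came from the promoter table, which lists 12014 of 14752 coding genes (81.4%) and none on chromosome 18. Windows were named by rule: the 12 largest non-overlapping called differences each way, the 3 smallest adjusted p-values, the genes with the most called windows, and listed genes in called windows. Because every gene had at most 1 called window, the third part of the rule named none. Alternatives were the logit scale, a common prior variance, leaving out zeros, other thresholds, windows and grids, a replicate block, and each library left out.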

Additional observations from a re-analysis of the deposited data

Results flagged for a closer look

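A library stood apart from the other 3 of its group in 5 of 78 groups of 4 examined, where chance flags about 1 in 20. At the Slc35a5 window the highest ND library was at 94.75%, against 94.37% for the next and 94.3% for the lowest. At the Rad17 window the highest ND library was at 94.99%, against 93.37% for the next. Across the highly methylated windows of Fam172a the lowest NASH library was at 91.97%, and the next at 93.05%. In Utrn, the utrophin gene, the highest ND library was at 93.81%, and the next at 93.52%. In Sclt1, a centriole gene, the highest NASH library was at 93.94%, and the next at 93.0%.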

How the results depend on the processing

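The counts of called windows depended strongly on the processing, and the mean difference did not change sign. On the logit scale 51 windows were lower and 2 higher. A common prior variance gave 16 lower and 0 higher. Leaving out doubtful zeros (a 0 whose 10 nearest positions have a median of at least 50%) gave 116 and 8, and leaving out every zero 163 and 9, with 31 and 36 of the 46 falls kept. A level threshold of 85% gave 339 and 55, and one of 95% gave 0 and 0. Asking for 80 positions gave 93 and 4, and testing windows with 10 or more positions 30 and 0. A grid shifted by 2500 bases gave 61 and 9, and windows of 10000 bases 71 and 7. With the replicate number as a block, limma called 0 and 0, though same-numbered libraries share only a number (correlations of their deviations from -0.006 to 0 over highly methylated windows). With 1 library left out 0 to 22 were lower and 0 to 0 higher. All 14 named windows lost their call under the block and without ND 1, ND 2 or ND 4. The mean difference ranged from -0.35 to -0.766 points under the other settings and from -0.504 to -0.738 with 1 library left out. The causes were not tested. Depth is unknown, so a difference that was not called may lie below what these levels can show.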
